A study of Mus musculus with 23 samples.

Results

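The unfolded protein response is the program that cells start when unfolded proteins pile up in the endoplasmic reticulum (ER). Its sensors IRE1, PERK and ATF6 raise the supply of chaperones, hold back translation and, when the load lasts, turn on genes that favor cell death. ER stress in hypothalamic neurons is a known feature of diet-induced obesity in rodents. The response was followed here through 10 genes, Hspa5, Hsp90b1, Calr, Pdia4, Dnajb9, Herpud1, Xbp1, Atf4, Atf3 and Ddit3, chosen by name from the gene symbols on the array. All 10 were measured and passed the filter on low values, each through 1 identifier of the 31395 in the value table.

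The arrays held RNA of the frontal cortex (FC), the striatum (ST) and the hypothalamus (HT) of female C57BL/6 mice, 5 weeks old at the start. SC mice received standard chow for 8 weeks, and CM mice had a free choice of the chow and a chocolate mixture. All mice then went through an 11-day test battery, in which SC mice also tasted the chocolate mixture for short periods, before their own diet was given back and the tissue was taken. The groups were 4 SC and 3 CM arrays in FC, 4 SC and 4 CM arrays in ST, and 4 SC and 4 CM arrays in HT, each array from a separate animal within its group, with the same mice across regions. The CM FC group held mice O54, O56 and O58, and FC of mouse O52 was not analysed here.

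The label of the HT samples is thalamic region, and those arrays carried markers of both structures. Hcrt, the hypothalamic orexin precursor, had a mean log2 signal of 15.81 in SC HT and 8.30 in SC FC, and Gbx2, a thalamic transcription factor, had 9.85 and 4.71, the latter well above background on 1 of 4 arrays. The arrays lay on 3 slides, and slide overlapped with diet and with region. Of the SC FC arrays 3 lay on slide 1 and 1 on slide 2. Of the SC HT arrays 3 lay on slide 3 and 1 on slide 2. SC HT and SC FC thus shared slide 2 alone, with 1 array each. Slide 3 held all CM FC arrays and no SC FC array, so slide and diet cannot be told apart in FC. Slide 1 held all CM ST arrays with 1 SC ST array, and slide 2 held all CM HT arrays with 1 SC HT array. Spots well above background numbered 41481 to 42261 on the CM FC arrays and 36432 to 38472 on the SC FC arrays. Choroid plexus markers stood apart on the ST array of CM mouse O58, with a summed signal of 337000 against 5248 to 19090 on the other CM ST arrays. Frontal cortex markers summed to 8887 and 7474 on the ST arrays of SC mice L54 and L58. On those of L52 and L56 they summed to 2079 and 1929, and in SC FC to 8270 to 15370. Hypothalamus markers summed to 119100 on the ST array of SC mouse L52, against 26260 to 45360 on the other SC ST arrays. On the HT arrays they summed to 41680 for SC mouse L54 and to 62190 for CM mouse O58. The other HT arrays had 184500 to 337200 in SC mice and 190600 to 232500 in CM mice. Striatum markers summed to 71070 on the HT array of L54 and to 26860 to 43790 on the other SC HT arrays. The part of such mixing in the differences between regions and between diets was not tested. Precision was limited by the number of arrays.

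Promoter sequences show which of these genes carry the textbook ER stress element close to their start. RefSeq promoter windows (GRCm38.p6, 250 bases before to 50 after the start site) were found for all 10 genes and searched on both strands. The ER stress response element, CCAAT and CCACG with 9 bases between them, is bound by ATF6 together with NF-Y, and its letters were present in 3 of the 10 genes against 0.119% of all 32851 windows. Hspa5 and Calr held 1 copy each, and Hsp90b1 held 2. The shorter type II element, ATTGG and CCACG with 1 base between them, was present in Herpud1 alone among the 10 genes and in 0.0365% of all windows. These 4 promoters are printed 5′ to 3′ along the strand of the gene, followed by those of Atf3 and Ddit3, the genes that differed between the diets in FC. Capitals mark the fixed letters of a match. In Calr and in the second copy of Hsp90b1 the element lies on the opposite strand and reads CGTGG and then ATTGG.
Hspa5 (chr2:34771980-34772059, + strand): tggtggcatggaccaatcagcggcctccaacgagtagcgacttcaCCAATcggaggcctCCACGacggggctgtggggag
Hsp90b1 (chr10:86705525-86705664, - strand): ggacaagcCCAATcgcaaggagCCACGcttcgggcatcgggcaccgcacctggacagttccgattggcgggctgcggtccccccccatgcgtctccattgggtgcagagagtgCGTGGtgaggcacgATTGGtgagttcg
Calr (chr8:84847022-84847101, - strand): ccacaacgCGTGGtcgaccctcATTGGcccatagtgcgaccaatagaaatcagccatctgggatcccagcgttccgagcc
Herpud1 (chr8:94386319-94386398, + strand): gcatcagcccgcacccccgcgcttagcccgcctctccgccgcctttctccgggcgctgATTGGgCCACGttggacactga
Atf3 (chr1:191183364-191183443, - strand): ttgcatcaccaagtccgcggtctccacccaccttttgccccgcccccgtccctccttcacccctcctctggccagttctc
Ddit3 (chr10:127290683-127290762, + strand): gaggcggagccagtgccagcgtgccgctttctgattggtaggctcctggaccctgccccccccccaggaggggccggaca
The Atf3 and Ddit3 windows held neither element with these exact letters, nor did those of Pdia4, Dnajb9, Xbp1 and Atf4. The XBP1 motif TGACGTGG, the cAMP response element TGACGTCA and the ATF4 composite element TGATGNAAT were found in none of the 10 windows, and in 0.676%, 1.79% and 0.965% of all windows. No match says only that these letters are not in the window, and none of these sequences was measured here.

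**Figure D1:**
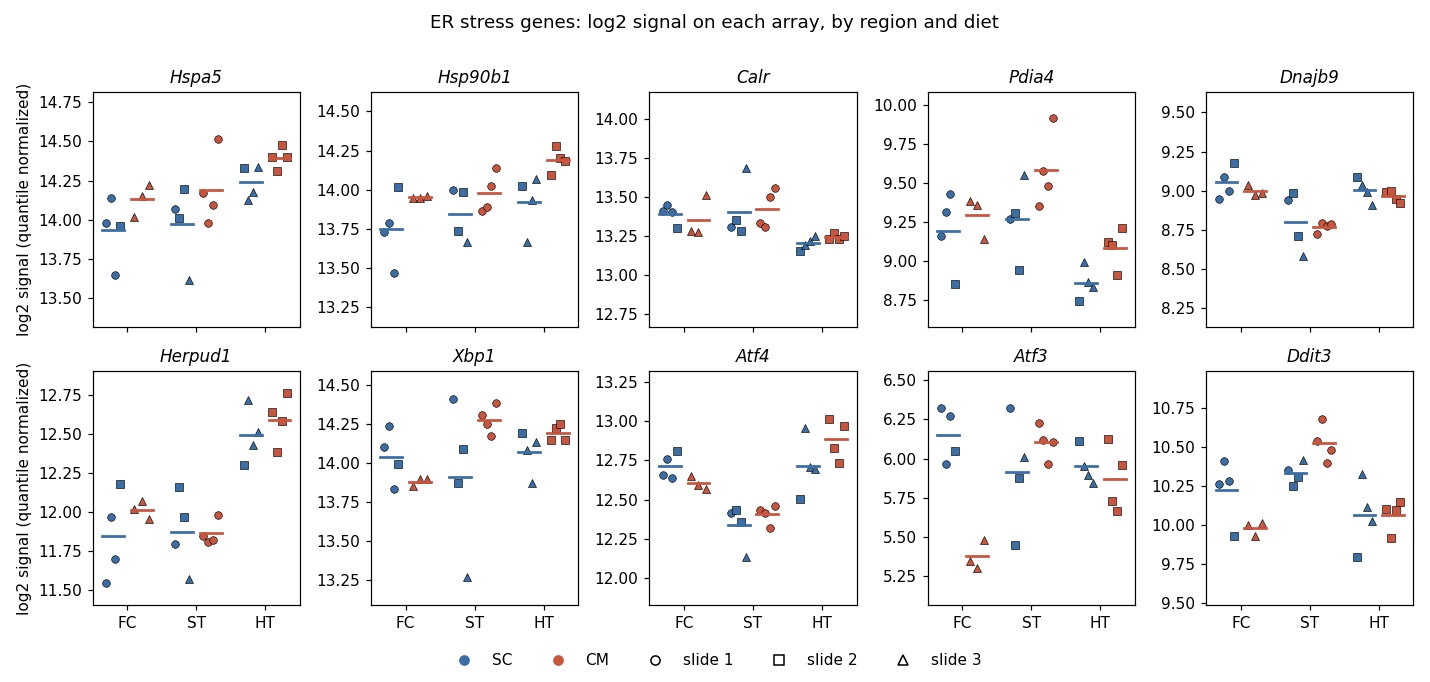
Quantile normalized log2 signal (vertical axis, spanning 1.5 log2 units in each panel) of the 10 ER stress genes on the 23 arrays, by region (horizontal axis) and diet (blue SC, red CM), with the slide as the marker shape and the group mean as a line. Atf3 on the 3 CM FC arrays lies between 5.30 and 5.48, under all SC FC arrays, and the group means of Herpud1 and Hspa5 are highest in HT.

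The comparison of CM with SC mice asked which genes differed after weeks of free access to the chocolate mixture, in each region separately. In FC, 2 of the 10 genes fell in CM mice and none rose. Of all identifiers 28.6% passed the same threshold (limma, adjusted p under 0.05) and 13.2% were lower, so the share of the 10 genes was near the background. Both were late transcription factors of the PERK branch, Atf3 and Ddit3, while the chaperones and Herpud1 did not pass. The median log2 difference over the 10 genes was -0.06, beside -0.04 over all identifiers. In bulk tissue, fewer cells of a type and less RNA per cell cannot be told apart. No gene passed the study's stricter limits of 2-fold and an adjusted p under 0.01 in FC, which 2.94% of all identifiers passed.

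Atf3, a stress-induced repressor downstream of PERK and of many other signals, showed the largest difference of the 10 genes in FC. Its log2 signals in SC FC were 6.05, 6.32, 5.97 and 6.27, and in CM FC 5.35, 5.30 and 5.48. The groups did not overlap, and of all identifiers 25.3% had groups that did not overlap in this comparison. The fitted log2 difference was -0.78 (SE 0.134, 95% interval -1.06 to -0.50), a 1.72-fold lower signal (limma, adjusted p = 0.000322). Atf3 had the lowest signal of the 10 genes, with a mean log2 of 5.92. Over the 13 alternative settings its difference ran from -0.823 to -0.405, so the fold size depended on the setting. Atf3 signals on the other slide 3 arrays, which were 3 SC HT arrays and 1 SC ST array, were 5.95, 5.89, 5.85 and 6.01, above those of CM FC. When the slide entered as a fixed block the difference was -0.48 (SE 0.271, adjusted p = 0.773), and when it entered as a random block -0.67 (adjusted p = 0.0263). No slide held FC arrays of both diets, so all slide-adjusted diet differences in FC rest on slide shifts taken as equal across regions.

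Ddit3, which encodes CHOP, the factor that links lasting ER stress to cell death, had log2 signals of 9.93, 10.27, 10.41 and 10.28 in SC FC and of 10.002, 9.93 and 10.02 in CM FC. The groups overlapped through SC mouse L52, the one SC FC array on slide 2. The fitted difference was -0.31 (SE 0.099), a 1.24-fold lower signal (limma, adjusted p = 0.0248). This call was lost without SC mouse L54, SC mouse L56 or CM mouse O56, when the adjusted p was 0.0656, 0.104 and 0.0828. A fixed slide block gave -0.33 (adjusted p = 0.785) and a random one -0.34 (adjusted p = 0.0993).

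Markers of other cell types were also compared between the FC groups, where 28.6% of all identifiers were called. The share called was 62.5% for oligodendrocyte, 33.3% for astrocyte, 11.1% for striatum and 66.7% for pituitary markers. None was called among the frontal cortex, hypothalamus, thalamus, choroid plexus, microglia and red blood cell markers, and 16.7% of the endothelial markers were. Of the 8 oligodendrocyte markers, 4 fell and 1 rose in CM FC, with a summed signal of 102300 to 127700 in CM FC and 99750 to 213100 in SC FC. Of the 6 astrocyte markers 2 fell, with summed signals of 47070 to 48310 in CM FC and 41850 to 56540 in SC FC. Of the 9 striatum markers none had a positive difference and 1 fell, with a median log2 difference of -1.08. Their summed signals overlapped, at 25000 to 108500 in CM FC and 26710 to 112300 in SC FC. They were 26710 for SC mouse L52, 25000 for CM mouse O54 and 30370 for CM mouse O56. On the other FC arrays they were 94600 to 112300. Mouse L52 is the one through which the Ddit3 groups overlapped. Of the 7 pituitary symbols on the array 3 were measured, and Prl, Fshb, Tshb and Cga did not pass the filter. Among the 3 measured, Gh and Lhb rose, with summed signals of 361 to 440.1 in CM FC and 121.1 to 232.2 in SC FC. The mean log2 signal of Gh was 5.01 in CM FC and 4.54 in SC FC. No measured oligodendrocyte, astrocyte, striatum or pituitary marker was at 0, though Gh was well above background on none of the SC FC arrays. The part of these cell types and of background in the Atf3 and Ddit3 differences was not tested.

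The remaining ER stress genes were not called in FC. Hspa5, which encodes BiP, the main ER chaperone and the brake on all sensors, had log2 signals of 13.96, 13.98, 14.14 and 13.65 in SC FC and of 14.01, 14.15 and 14.22 in CM FC, a difference of 0.18 (95% interval -0.07 to 0.44, adjusted p = 0.266). Hsp90b1, the ER form of Hsp90, came closest to the threshold, with 14.02, 13.73, 13.78 and 13.47 in SC FC and 13.95, 13.95 and 13.96 in CM FC. Its fitted difference was 0.24 (SE 0.0995, adjusted p = 0.0743), and its SC values lay on both sides of the CM values. Hsp90b1 passed without SC mouse L52 (0.29, adjusted p = 0.0392) or L56 (0.34, adjusted p = 0.0373). Herpud1, a component of ER-associated degradation, differed by 0.20 (adjusted p = 0.211). Xbp1, the factor that IRE1 activates by splicing, differed by -0.18 (adjusted p = 0.228, and 0.0476 without SC mouse L58), and a probe signal for the whole transcript does not tell its spliced form apart. The lectin chaperone gene Calr, the disulfide isomerase gene Pdia4, the BiP cochaperone gene Dnajb9 and Atf4, the central factor of the PERK branch, differed by -0.07, 0.05, -0.05 and -0.10.

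In ST, none of the 10 genes passed (limma), where 9.82% of all identifiers did. In none of the 10 were the groups without overlap, which held for 7.67% of all identifiers. An unadjusted p under 0.05 was found for 2 of the 10 genes and for 8006 of all 31395 identifiers. The 2 genes were Pdia4, with a difference of 0.39 (SE 0.143, adjusted p = 0.0864), and Xbp1, with 0.27 (SE 0.12, adjusted p = 0.155). Pdia4 log2 signals were 9.27, 9.31, 8.94 and 9.55 in SC ST and 9.35, 9.57, 9.48 and 9.91 in CM ST, so the groups overlapped. The highest Pdia4 value was that of mouse O58, whose ST array carried the choroid plexus signal, and without it the difference was 0.33 (adjusted p = 0.131), while without SC mouse L54 it was 0.52 (adjusted p = 0.012). Hspa5 was also highest on that array, at 14.52, and its fitted difference in ST went from 0.09 to 0.01 without it. The fit weighted the arrays, and the plain group means in ST differed otherwise. Those differences were 0.22 for Hspa5 and 0.37 for Xbp1, above the fitted values, and 0.31 for Pdia4, below it. Within slide 1, the 4 CM ST arrays exceeded the 1 SC ST array by 0.31 for Pdia4 and lay 0.13 below it for Xbp1, which has no replicate check. Atf3 and Ddit3, lower in CM FC, differed by 0.26 (adjusted p = 0.273) and 0.21 (adjusted p = 0.245) in ST.

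Xbp1 varied most among the SC ST arrays, with log2 signals of 14.41, 13.87, 14.09 and 13.27, against 14.30, 14.25, 14.17 and 14.38 in CM ST. The lowest, from mouse L58, lay on slide 3, and the same array was also the lowest of all 23 for Hspa5, at 13.61, for Atf4, at 12.13, and for Dnajb9, at 8.58, and the highest of all 23 for Calr, at 13.68. Without it the Xbp1 difference between the diets in ST was 0.17 (adjusted p = 0.341), and without SC mouse L52 or L56 it was 0.40 (adjusted p = 0.0383) and 0.41 (adjusted p = 0.0337).

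In HT, where 0.43% of all identifiers passed, none of the 10 genes did (limma). An unadjusted p under 0.05 was found for 1 of the 10 genes and for 4154 of all 31395 identifiers. The 1 gene was Hsp90b1, with log2 signals of 13.66, 13.93, 14.07 and 14.02 in SC HT and 14.09, 14.28, 14.21 and 14.18 in CM HT. The groups did not overlap, as for 6.77% of all identifiers, and the fitted difference was 0.25 (SE 0.0833, adjusted p = 0.182). Within slide 2 the 4 CM HT arrays exceeded the 1 SC HT array by 0.17. Hspa5 in HT was 14.12, 14.17, 14.34 and 14.33 in SC mice and 14.40, 14.31, 14.48 and 14.40 in CM mice, a difference of 0.14 (95% interval -0.07 to 0.35). Pdia4 differed by 0.21 in HT (95% interval -0.02 to 0.43, adjusted p = 0.429), and by 0.34 within slide 2. The differences of Atf4 (0.14), Xbp1 (0.13), Herpud1 (0.07), Calr (0.03), Dnajb9 (-0.01), Ddit3 (-0.01) and Atf3 (-0.10) had intervals that included 0. The interval of every one of the 10 genes in HT lay between -0.33 and 0.43.

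**Figure D2:**
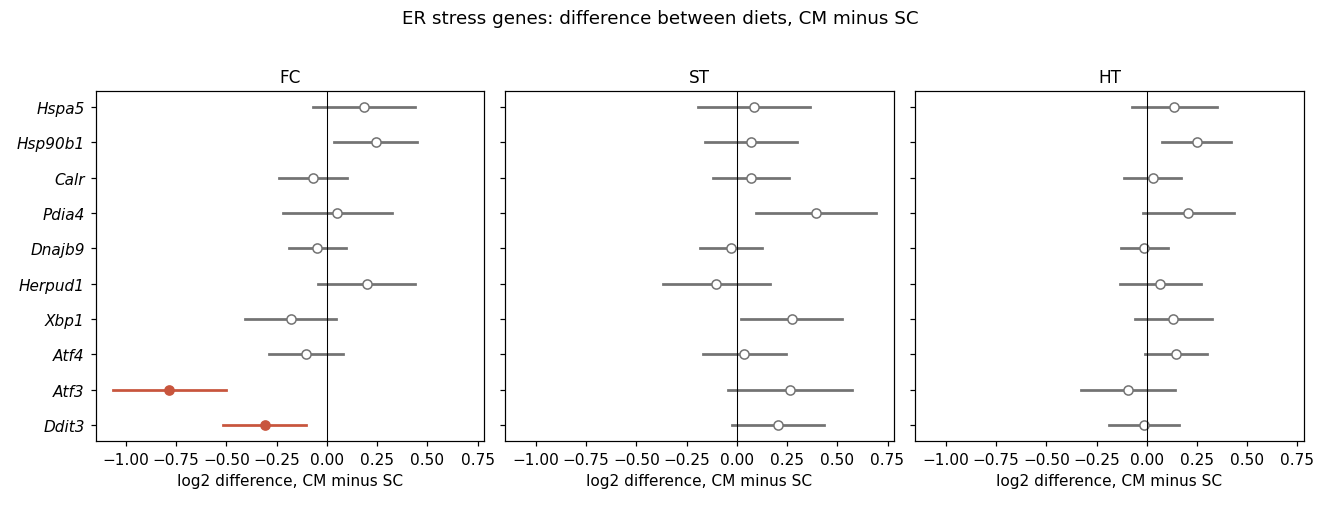
Fitted log2 difference of CM minus SC (horizontal axis) with its 95% interval for the 10 ER stress genes in FC, ST and HT, with filled red points for an adjusted p under 0.05. Atf3 (-0.78) and Ddit3 (-0.31) in FC are the filled points, and no gene is filled in ST or HT.

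The diet differences of the regions were then compared with each other. Atf3 differed between FC and ST by -1.05 (SE 0.203, limma interaction, adjusted p = 0.000733) and between FC and HT by -0.69 (SE 0.178, adjusted p = 0.0103). Ddit3 differed between FC and ST by -0.51 (SE 0.15, adjusted p = 0.0139) and between FC and HT by -0.30 (adjusted p = 0.119). Xbp1 differed between FC and ST by -0.45 (SE 0.165, adjusted p = 0.0437), a call lost without SC ST mouse L58 (-0.36, adjusted p = 0.0723) and without each of 9 other arrays, and its sign turned (0.49) under a fixed slide block. Thus 3 of the 10 genes passed between FC and ST, where 30.1% of all identifiers did, and 1 between FC and HT, where 20% did. Between ST and HT, limma called none of the 10 genes and 0% of all identifiers, with no member under an unadjusted p of 0.05 and 4658 identifiers under it. Under a fixed slide block no interaction was called for any identifier.

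Levels by region in SC mice gave a second view of the same genes. Herpud1 was the one whose regional difference was largest. Its log2 signals were 12.18, 11.55, 11.97 and 11.70 in SC FC, 11.80, 12.16, 11.97 and 11.58 in SC ST, and 12.72, 12.43, 12.51 and 12.30 in SC HT. All HT values lay above all values of the other regions, while FC and ST overlapped. Groups without overlap were found for 32.4% of all identifiers between HT and FC and for 21.7% between HT and ST. Herpud1 was higher in HT than in FC by 0.67 (SE 0.128, a 1.6-fold higher signal, limma, adjusted p = 0.000309) and than in ST by 0.54 (SE 0.136, adjusted p = 0.00624), and its CM HT signals of 12.64, 12.39, 12.58 and 12.76 lay in the same range. Under a fixed slide block the difference from FC was 0.50 (adjusted p = 0.153) and that from ST 0.61 (adjusted p = 0.034). Within slide 2, 1 SC HT array exceeded 1 SC FC array by 0.12 and the mean of 2 SC ST arrays by 0.23, and within slide 3, 3 SC HT arrays exceeded 1 SC ST array by 0.98, all without a replicate check.

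Atf4 had its lowest signals in ST. They were 12.42, 12.43, 12.36 and 12.13 in SC ST, 12.81, 12.66, 12.76 and 12.64 in SC FC and 12.96, 12.71, 12.69 and 12.50 in SC HT. All ST values lay below all values of the other regions, which overlapped. Between ST and FC, 11.4% of all identifiers had groups without overlap. The Atf4 difference was 0.35 between HT and ST (SE 0.105, limma, adjusted p = 0.0189) and -0.35 between ST and FC (SE 0.115, adjusted p = 0.0483). The first call was lost without SC ST mouse L56 (adjusted p 0.0544) and the second without any one of 6 of the 8 arrays. Under a fixed slide block the adjusted p of Atf4 was 0.0983 for HT minus ST and 0.0402 for ST minus FC, and under a random one 0.0318 and 0.0779.

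Pdia4 ran the other way. Its log2 signals were 8.99, 8.86, 8.84 and 8.75 in SC HT and 8.85, 9.16, 9.31 and 9.43 in SC FC, with one FC array inside the HT range. Pdia4 was lower in HT than in FC (log2 difference -0.40, SE 0.143, limma, adjusted p = 0.0291), a call lost without SC HT mouse L54, SC HT mouse L56 or SC FC mouse L58. Under a fixed slide block the Pdia4 difference was -0.38 (adjusted p = 0.37), under a random one -0.37 (adjusted p = 0.125), and with signals scaled to their 75th percentile -0.23 (adjusted p = 0.206). Calr was also lowest in HT, with 13.19, 13.22, 13.25 and 13.15 in SC HT, no overlap with the 13.30 to 13.45 of SC FC and the 13.28 to 13.68 of SC ST, and a difference from FC of -0.19 (adjusted p = 0.0899). Hspa5 and Hsp90b1 differed between HT and FC by 0.32 (adjusted p = 0.0608) and 0.25 (adjusted p = 0.0776). Of the 10 genes, 1 passed between ST and FC, 2 between HT and FC and 2 between HT and ST, where 14.9%, 43.2% and 21.5% of all identifiers passed.

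**Figure D3:**
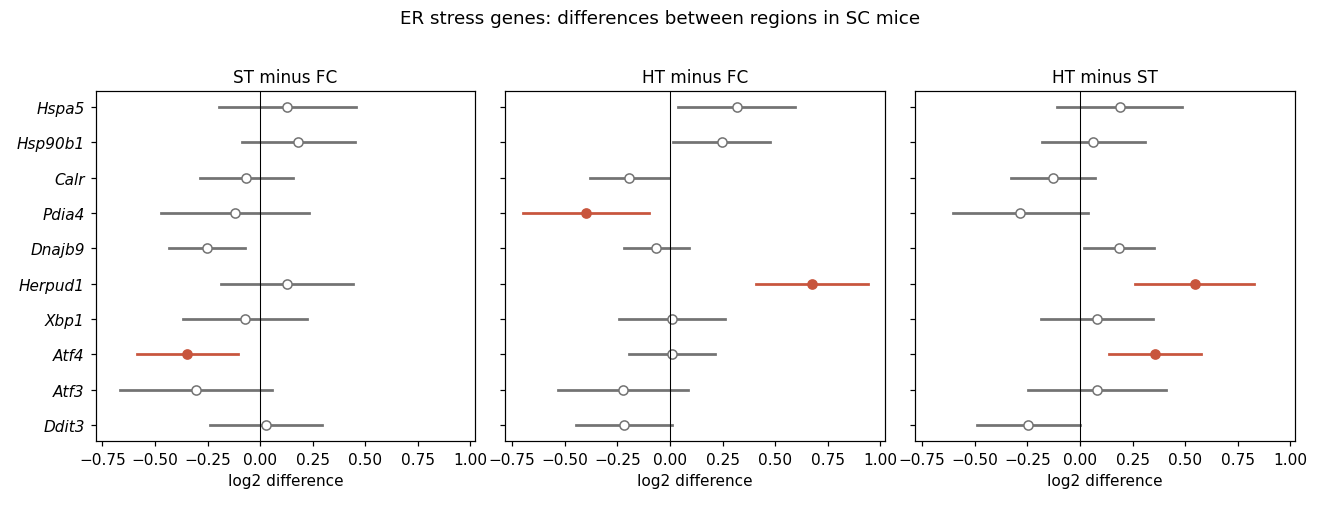
Fitted log2 differences between regions in SC mice (horizontal axis) with 95% intervals for the 10 ER stress genes, with filled red points for an adjusted p under 0.05. Herpud1 is filled in both comparisons with HT (0.67 and 0.54), Pdia4 in HT minus FC (-0.40) and Atf4 in both comparisons with ST.

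Dnajb9 and Atf4 were each averaged over 2 probes. For Dnajb9 the probes disagreed between regions. The probe A_51_P198835 was higher in SC HT than in SC FC by 0.45 (limma, adjusted p = 0.000794), and A_66_P133450 was lower (-0.58, adjusted p = 0.00175), so the Dnajb9 average of -0.06 describes neither. Both probes lie in the same gene on chromosome 12 (mm9), from 45307313 to 45307372 and from 45308272 to 45308331. Neither Dnajb9 probe differed between the diets in FC, with 0.05 and -0.14. For Atf4, the probe A_51_P464238 fell in CM FC (log2 difference -0.25, limma, adjusted p = 0.0428), and A_55_P1979728 differed by 0.04 (adjusted p = 0.831).

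The other genes of the pathway were read from 7 lists of 87 measured genes. In FC, 20 of the 87 were called in the comparison of diets, 4 higher and 16 lower, a share of 23% beside 28.6% over all identifiers. Without 1 array this count ran from 8 to 21 (8 without SC mouse L54, 10 without CM mouse O56, 11 without CM mouse O54 and 12 without SC mouse L58), under a random slide block it was 3, and under a fixed one 0. In ST 3 of the 87 (3.45%) were called, beside 9.82% of all identifiers, and in HT none, beside 0.43%.

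Targets and feedback genes of PERK and ATF4 held 4 called genes among 16 (25%), all lower in CM FC, where 28.6% of all identifiers were called and 13.2% were lower. Psat1 and Phgdh, enzymes of serine synthesis, differed by -0.46 (SE 0.0974, limma, adjusted p = 0.00179) and -0.57 (SE 0.122, adjusted p = 0.00196). Trib3, a pseudokinase that CHOP induces and that feeds back on ATF4, differed by -0.60 (adjusted p = 0.0168), and the secreted factor Stc2 by -0.48 (adjusted p = 0.0366). The classical targets Asns (0.02), Chac1 (-0.06) and Ppp1r15a (-0.06), which encodes the GADD34 feedback phosphatase subunit, did not pass. The median of the 16 genes was -0.06. Psat1 and Phgdh were the ones called under a random slide block (adjusted p = 0.036 and 0.0315), and none was called under a fixed one. Without CM mouse O54 or O56, 2 of the 16 genes were called.

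In FC 28.6% of all identifiers were called and 13.2% were lower. Called were 23.1% of ER chaperones and folding factors, 11.1% of oxidoreductases and 18.8% of ER-associated degradation genes. Of translocation and secretion genes 31.6% were called, and of membrane and cell death factors 42.9%. Among ER chaperones and folding factors 3 of 13 fell in CM FC, the glycoprotein folding sensor Uggt1 (-0.31), Fkbp2 (-0.30) and the BiP nucleotide exchange factor Sil1 (-0.42). Of 9 oxidoreductases 1 fell, Txndc5 (-0.30). Of 16 genes of ER-associated degradation H47 fell (-0.30), and Edem3 (0.32) and Ubxn4 (0.91) rose. Of 19 genes of translocation and secretion 4 fell, Ssr2 (-0.41), Spcs1 (-0.28), Kdelr3 (-0.50) and Sec61g (-0.23), and 2 rose, Srp19 (0.31) and Spcs2 (0.30). The 7 membrane and cell death factors had 3 lower genes, the BCL2 family members Bax (-0.80) and Bbc3 (-0.47) and the ER membrane protein gene Tmbim6 (-0.32). None of the 7 sensors and ATF6 processing genes passed.

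In ST, the called pathway genes were Sesn2 (-0.61, adjusted p = 0.00484), which ATF4 induces, H47 (0.30, adjusted p = 0.0494) and Ubxn4 (-0.998, adjusted p = 0.0389). H47 and Ubxn4 ran opposite ways in FC and ST, and the difference between their diet effects was -0.59 (adjusted p = 0.00182) for H47 and 1.91 (adjusted p = 0.00161) for Ubxn4. Of the 13 chaperones and folding factors 12 had a positive difference in ST, with a median of 0.15 and none called, beside a median of 0.03 over all identifiers. Their mean log2 signal was highest on the CM ST array with the choroid plexus signal (mouse O58, 11.32) and lowest on the SC ST array of mouse L58 (10.92), and their median difference was 0.13 when either array was left out.

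**Figure D4:**
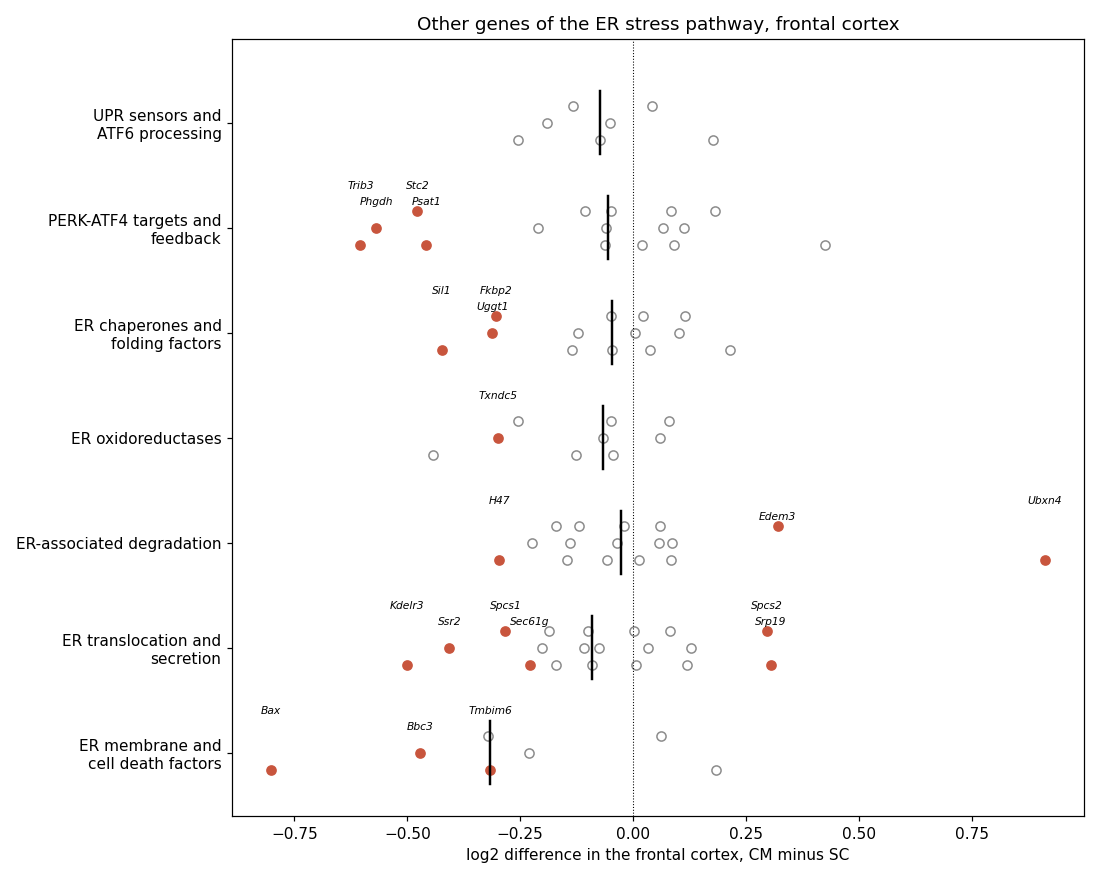
Log2 difference of CM minus SC in FC (horizontal axis) of the 87 other genes of the ER stress pathway, in 7 lists, with filled red points and names for an adjusted p under 0.05 and a black line at each list's median. The 4 called targets of PERK and ATF4 lie between -0.60 and -0.46, and no sensor is filled.

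Between regions in SC mice, 26 of the 87 pathway genes (29.9%) were called for HT minus FC, beside 43.2% of all identifiers. For HT minus ST 15 (17.2%) were called, beside 21.5%. The sensor gene Atf6 was named after the values were seen. It was lower in SC HT than in SC FC (log2 difference -1.58, limma, adjusted p = 1.39e-07) and than in SC ST (-1.32, adjusted p = 4.02e-06). Prdx4, the ER peroxiredoxin, was higher in SC HT than in FC by 0.65 (adjusted p = 4.23e-06), and Ero1lb, which reoxidizes disulfide isomerases, by 0.71 (adjusted p = 0.000949). Of the 9 oxidoreductases 5 (55.6%) were higher in HT than in FC and none was lower, where 43.2% of all identifiers passed in either direction. This was the highest share of the 7 lists. The others ran from 15.4% for chaperones and folding factors to 42.9% for sensors and ATF6 processing genes.

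Other stress programs were read from 2 further lists. Of 15 cytosolic heat shock genes in FC, Hspe1 (0.52) and Hsf1 (0.28) rose and Bag3 (-0.35) and Fkbp4 (-0.26) fell with the CM diet, which made 26.7% of the list. Of 16 immediate early genes, which neurons induce on activity, Arc (1.44, adjusted p = 0.000765), Egr1 (0.83), Dusp1 (0.46) and Fos (0.52) rose and Jun (-0.47) fell in CM FC, which made 31.2% of the list. Both shares were near the 28.6% of all identifiers called in FC.

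The 10 ER stress genes did not vary as a block over the 23 arrays. The 45 pairs had Pearson correlations from -0.69 to 0.81 with a median of 0.06, and 9 were above 0.5. The arrays share mice, slides and regions, so these values are descriptions. Hspa5 and Hsp90b1 were the closest pair (0.81, and 0.67 after the group means were taken off). Herpud1 and Atf4 went together (0.75, and 0.74 after the group means were taken off), as did Hspa5 and Xbp1 (0.66 and 0.73) and Calr and Pdia4 (0.69 and 0.50). Calr and Herpud1 ran against each other (-0.69). Atf3 and Ddit3, both lower in CM FC, had a correlation of 0.47, and of 0.17 after the group means were taken off.

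**Figure D5:**
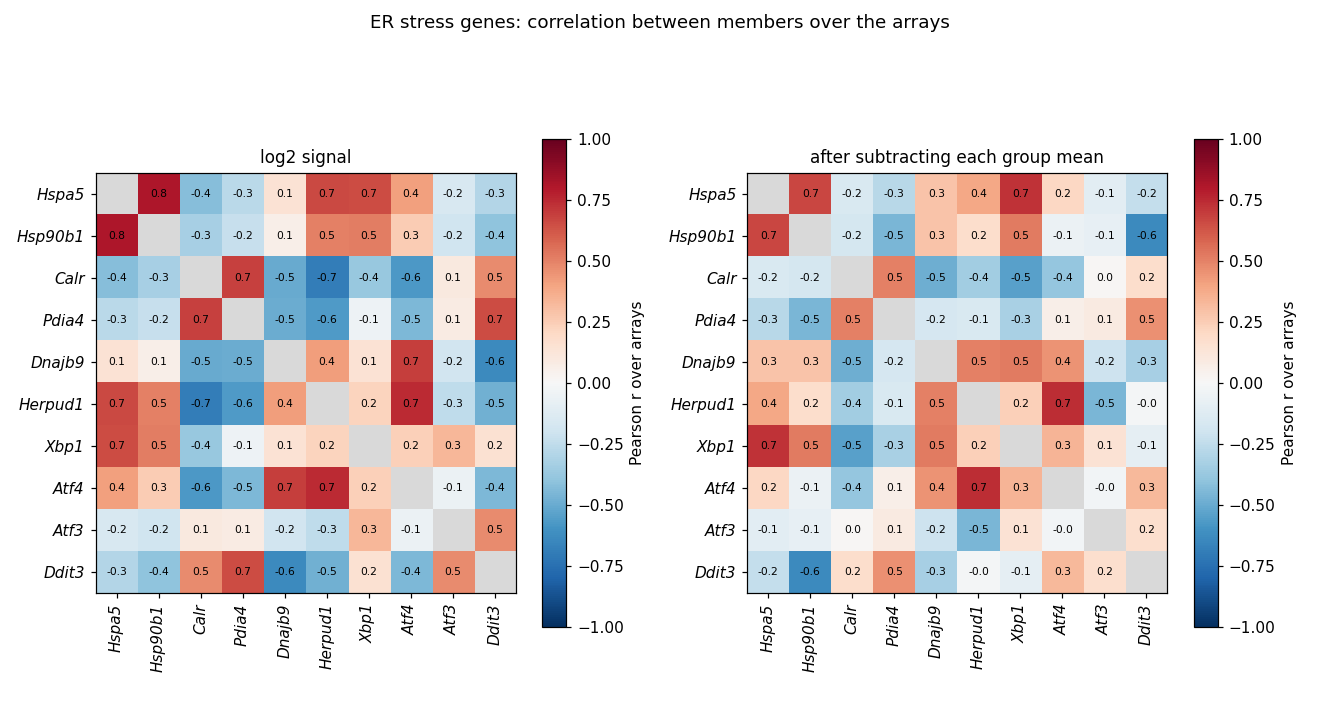
Pearson correlation between the 10 ER stress genes over the 23 arrays, for the log2 signal (left) and after subtracting each group mean (right), on a color scale from -1 to 1. Hspa5 and Hsp90b1 (0.81 and 0.67) and Herpud1 and Atf4 (0.75 and 0.74) lie high on both sides, as do Hspa5 and Xbp1 (0.66 and 0.73).

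The most similar genes were sought among identifiers named by a RefSeq gene symbol or synonym, so unnamed transcripts were left out. Over the 23 arrays, the genes most like Atf3 in log2 signal were Phb2 (Pearson r 0.85), Ears2 (0.84) and Tmcc2 (0.84). Those most like Ddit3 were Elac2 (0.92), Crat (0.89) and Nhej1 (0.89). The genes most like Herpud1 were Mrs2 (0.95), Brp44 (0.94) and Atp5a1 (0.94). The single most similar gene was Baz2b (0.89) for Hspa5, Tra2a (0.93) for Hsp90b1, Rps6kb2 (0.87) for Calr, Atg9a (0.87) for Pdia4, Gm2464 (0.91) for Dnajb9, Pbrm1 (0.93) for Xbp1 and Ldhd (0.92) for Atf4. After the group means were taken off, Iah1 was nearest to Atf3 (0.79), Cyth1 to Ddit3 (0.88) and Gfm1 to Herpud1 (0.89).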

How the data were processed

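RNA was hybridized to 1-color Agilent SurePrint arrays. The authors deposited spot intensities from Feature Extraction 10.7.3.1 together with a table of log2 values. Starting from the spots, median intensities were corrected by normexp (offset 0), quantile normalized and filtered. A probe was kept when its log2 value exceeded 1.1 times the log2 95th percentile of the negative controls on 4 or more arrays. Probes of 1 transcript identifier were averaged. The result matched the deposited log2 values within 5e-09. The limma model (limma version 3.58.1, statmod version 1.5.0, data.table version 1.17.8, R version 4.3.3) held 6 group means for the 23 arrays, gene-by-gene array weights and the mouse as random block, with a correlation of -0.0398. P-values were moderated by empirical Bayes and adjusted by the Benjamini-Hochberg method over 31395 identifiers, and a gene was called at an adjusted p under 0.05. Every spot of the 10 genes was well above background and unsaturated on each array. Probe coordinates came from the array annotation (mm9), and no probe level was set against that of another probe.

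Named were all 10 genes, called pathway genes (up to 4 per list and diet comparison, smallest p first), and the genes most like a member. Pathway genes named beyond this rule (Asns, Chac1 and Ppp1r15a, the regional genes Atf6, Prdx4 and Ero1lb, and the fifth and sixth genes of longer lists) were chosen after their values were seen. The members and lists were chosen with earlier results of these data known. The fit was tested on simulated data. Alternatives were the slide, mouse and number blocks, array weights, normalization, background offset, filter, averaging, arrays fitted together, thresholds and each array left out.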

Additional observations from a re-analysis of the deposited data

Results flagged for a closer look

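A difference between the diet effects of 2 regions passed the limma interaction test for Atf3 (-1.05 on the log2 scale for FC minus ST, and -0.69 for FC minus HT), for Ddit3 (-0.51 for FC minus ST) and for Xbp1 (-0.45 for FC minus ST). The diet difference in FC was called for Atf3 and Ddit3 and not for Xbp1, none was called in ST or HT, and slide and diet cannot be told apart in FC. No array stood apart from the other 3 of its group for any of the 10 genes, in a screen of 50 combinations of gene and group with Dixon's critical value, and the 3 CM FC arrays were too few for this screen.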

How the results depend on the processing

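Under a fixed slide block, the number of ER stress genes called was 0 for the diet in FC, 1 for HT minus FC, 0 for the interaction of FC with ST and 0 for that of FC with HT, and no identifier at all was called for the diet in any region (2219, 1408 and 845 had an unadjusted p under 0.05 in FC, ST and HT). Under it Xbp1 reversed in the interaction of FC with ST (0.486), and Xbp1 was called in HT minus FC (0.600) and HT minus ST (0.469). Under a random one the counts were 1 for FC, 0 for ST minus FC, 1 for HT minus FC, 1 for FC with ST and 0 for FC with HT. Without array weights they were 1, 2, 1, 1 and 0 in the same order. With the processed signal scaled to its 75th percentile they were 0 for ST minus FC, 1 for HT minus FC, 1 for HT minus ST, 1 for FC with ST and 0 for FC with HT. This scaling moved the median of all identifiers in the interaction of FC with ST from -0.0931 to 0.0155, and the share of higher calls from 53.7% to 68.5% in FC, 35.1% to 22.1% in ST, 28.9% to 9.75% in HT, 51.7% to 62.6% in ST minus FC, 53% to 69.3% in FC with ST and 61.6% to 81.9% in FC with HT. For ST minus FC the count was 2 without the mouse block, with REML weights and when spots well above background set the filter, and 0 with cyclic loess, with no filter and with 1 value per probe, where Dnajb9 in HT minus FC reversed (0.449). With only the arrays of the groups compared it was 1 for FC, 0 for ST minus FC and 1 for HT minus ST. An offset of 50 gave 4 for HT minus FC, and the study's thresholds 0 for FC. The cause of these changes was not tested. Leaving out 1 array gave 1 to 3 genes for FC (1 without SC FC mouse L54 or CM FC mouse O56), 0 to 1 for ST, 0 to 0 for HT, 0 to 2 for ST minus FC, 1 to 5 for HT minus FC (5 without SC HT mouse L52), 2 to 3 for HT minus ST, 2 to 3 for FC with ST, 1 to 2 for FC with HT and 0 to 0 for ST with HT. The numbers shared by SC and CM mice name different animals, whose deviations correlated between -0.3212 and 0.1364. With this number as a replicate block the diet called 2 genes in FC and 0 in either ST or HT, and the count was 1 for ST minus FC, 3 for HT minus FC, 2 for HT minus ST, 2 for FC with ST, 1 for FC with HT and 0 for ST with HT. Atf3 in FC was called in 12 of 13 alternatives and in 7 of 7 fits without 1 array, Ddit3 in 9 of 13 and 4 of 7, Herpud1 in HT minus FC in 12 of 13 and 8 of 8, and Herpud1 in HT minus ST in 13 of 13 and 8 of 8.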
